A study of Mus musculus with 6 samples.

Results

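The signatures described here are those counted at a clear level in both mouse liver and a mouse fibroblast line. A signature is a stretch of 20 bases that starts at a GATC site and stands for a transcript. The counts of the 4 sequencing runs of a library were summed, a signature not listed in a library was given a count of 0, and counts were scaled to counts per 1000000 of the library's total (CPM). A signature was taken as shared when it reached at least 10 CPM in all 6 libraries. Of 69349 distinct signatures, 945 (1.36%) met this rule, 2286 were counted in all 6 libraries at any level, and 1341 of those fell under 10 CPM in at least 1 library. The members were chosen by their measured level in every library, so the presence of these signatures in both sources is a description and not a finding.

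Massively parallel signature sequencing (MPSS) was applied to 3 libraries of BLK.CL4, a fibroblast line derived from mouse embryo, and 3 libraries of mouse liver. All were made from total RNA of the C57BL6 strain. The labels give no treatment, age or sex, and do not state if a group's libraries stem from different cultures, animals or RNA preparations. The codes of the libraries in the labels differ in their letters: those of replicate 2 of both groups hold an N and no P, and those of replicate 3 of both groups hold a P. What these letters mean is not given in the sources used here. All p-values below therefore measure the spread between these libraries only, which may be technical.

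In MPSS, cDNA is cut with the enzyme DpnII at GATC, the bases that follow the site nearest the 3′ end are cloned, and each cloned molecule is amplified on a microbead. The number of beads that carry a signature measures how abundant its transcript was. Transcripts found in unlike cell types are often those of the general machinery of a cell, such as the ribosome, the respiratory chain, the cytoskeleton and protein turnover, while a hepatocyte also devotes much of its messenger RNA to secreted plasma proteins. A fibroblast line is a nearly uniform cell population, whereas liver also holds endothelial, immune and blood cells. In bulk RNA, fewer cells of a type and less RNA per cell cannot be told apart. No transcript sequences were used here, so the shared signatures are given by their bases, with no gene name, and neither source was checked against marker genes of its cell type.

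The results turn on 20 signatures, shown here because they are the most unequal, the most even and the most abundant of the shared set. Capitals mark the GATC site at which the cDNA was cut. The liver-high group holds the 5 with the largest ratio of liver to BLK.CL4 level among those whose groups of libraries do not overlap, and the cell-line-high group holds the 5 with the smallest ratio. The even group holds the 5 with the smallest SD of log2 CPM over the 6 libraries, and the abundant group holds the 3 with the highest mean in liver and the 3 with the highest mean in BLK.CL4, of which 1 is the same.
liver-high 1: GATCgcttactgtgaggaga
liver-high 2: GATCtctgctgtgggaaagg
liver-high 3: GATCctgcaggccctgggtg
liver-high 4: GATCcacgtctcgtcgtcag
liver-high 5: GATCtggttgtactgtcaaa
cell-line-high 1: GATCtcacaggctgagaaat
cell-line-high 2: GATCctcttccacgagacac
cell-line-high 3: GATCagcaagcaggagtacg
cell-line-high 4: GATCaagtttaaatgactgt
cell-line-high 5: GATCaaaggaaaggggaggg
even 1: GATCcacgaaggtggtgccc
even 2: GATCtccttggagtctcaag
even 3: GATCacaaatacagattctt
even 4: GATCtctgcccaaaccaggc
even 5: GATCccttttccattctgga
abundant 1: GATCccactgcacataggac
abundant 2: GATCaaactttaccattatt
abundant 3: GATCaaacaacccaacagga
abundant 4: GATCaacaaatctcctaggc
abundant 5: GATCcatctgcatttgcggc

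The libraries held 1890287, 2051367 and 2187783 counts for BLK.CL4 and 1724799, 2004290 and 2440849 for liver, so that 10 CPM stood for 17.2 to 24.4 counts. The shared signatures took a larger part of the cell line's counts than of the liver's. Their share was 51.7%, 40.0% and 50.6% in BLK.CL4 replicates 1, 2 and 3, against 26.7%, 31.6% and 25.5% in liver replicates 1, 2 and 3 (mean 47.4% ± 6.45 and 27.9% ± 3.25, SD, n = 3 each). All 3 BLK.CL4 shares lay above all 3 liver shares.

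Most shared signatures had a lower CPM in liver. The ratio of mean CPM, liver over BLK.CL4, had a median of -1.04 on the log2 scale, which is a level 2.06 times higher in BLK.CL4. It was below 1 for 686 signatures and above 1 for 259. Of the 945, 344 (36.4%) lay within 2-fold between the groups, 631 (66.8%) within 4-fold and 881 (93.2%) within 10-fold. The remaining 64 were more than 10-fold apart, with 48 on the BLK.CL4 side and 16 on the liver side. The central part of the distribution, from the 5th to the 95th percentile, ran from -3.32 to 2.12, and the extremes were a 62.6-fold excess in liver and a 48.2-fold excess in BLK.CL4.

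The direction of this median depended on the scaling. CPM divides by the whole library, of which the shared signatures are a larger part in the cell line. Scaling with TMM factors, computed from a trimmed mean of log ratios over the tested signatures, used factors of 1.72, 1.61 and 1.70 for BLK.CL4 and 0.604, 0.475 and 0.743 for liver. On that scale the median log2 ratio of the shared signatures was 0.44, and 567 members were higher in liver against 378 in BLK.CL4. The share within 2-fold was then 47.5%, and 62 signatures exceeded 10-fold in liver against 5 in BLK.CL4. The median over all 9115 tested signatures moved likewise, from -2.13 with library totals to -0.67 with TMM factors. The floor in every liver library keeps signatures low in liver out of the shared set, so the gap between these medians is a description. Tested signatures are those with at least 10 CPM in at least 2 libraries.

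**Figure D1:**
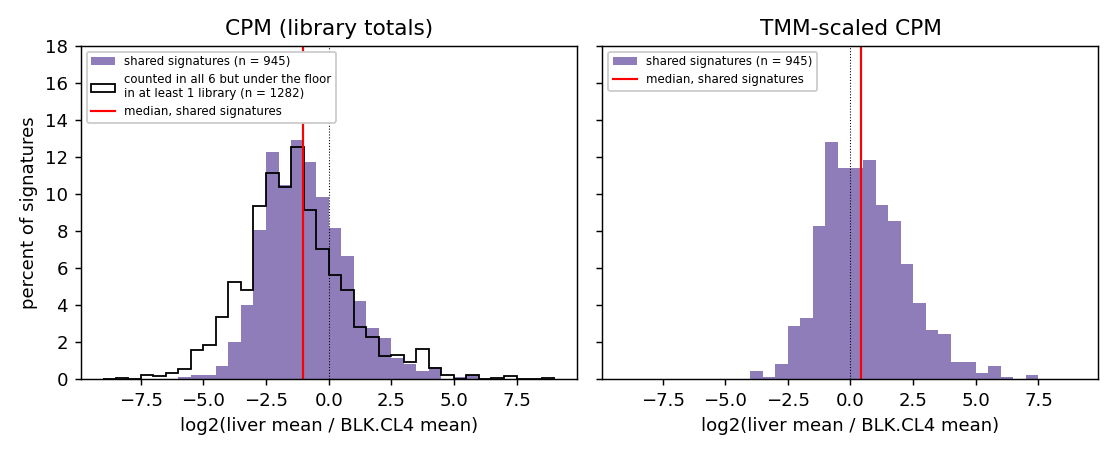
Distribution of the log2 ratio of mean level, liver over BLK.CL4 (x axis), as percent of signatures per bin (y axis), with CPM on the left and TMM-scaled CPM on the right. Filled bars are the 945 shared signatures, the red line is their median (-1.04 on the left, 0.44 on the right), and the outline on the left is the 1282 tested signatures that were counted in all 6 libraries but fell under 10 CPM in at least 1.

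The shared signatures differed less between the sources than other tested signatures that were also counted in every library. The log2 ratio had an SD of 1.68 over the 945 members and 2.15 over the 1282 others, of which 26.6% lay within 2-fold and 18.1% beyond 10-fold. The floor of 10 CPM in every library itself removes signatures that are low in 1 group, so this contrast is a description with no test.

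In a quasi-likelihood fit (edgeR, TMM factors, Benjamini-Hochberg adjustment over all 9115 tested signatures, adjusted p threshold 0.05), 127 members (13.4%) were called higher in liver, against a background of 14.9% of all tested signatures, and 34 (3.60%) were called higher in BLK.CL4, against 15.1%. In either direction 161 members (17.0%) passed, against 30%. The floor in every library keeps signatures that are low in 1 group out of the members. It thereby limits which differences a member can have, so shares under the background are a description and not a finding. Under library totals alone, 37 (3.92%, background 11.5%) passed as higher in liver and 196 (20.7%, background 25%) as higher in BLK.CL4, 233 in all against 36.5%. The 37 members called for liver with library totals also passed with TMM factors. The 34 called for BLK.CL4 with TMM factors also passed with library totals. No member passed in opposite directions. The change to TMM factors moves the log2 differences toward liver by a similar amount, so this agreement was close to given. The share of all tested signatures that passed under both is not given here, so these counts are not a result about the members. At an unadjusted p under 0.05, 272 members (28.8%, background 44.6%) passed with TMM factors and 344 (36.4%, background 51.9%) with library totals. Without BLK.CL4 replicates 1, 2 and 3 the calls for liver fell to 69, 94 and 81 of the 945 members. The backgrounds were then 11.6%, 13.3% and 12.9% of the signatures tested. Without liver replicates 1, 2 and 3 the calls for liver fell to 114, 96 and 83 of the 945 members (backgrounds 14.4%, 11.7% and 11.1%). The calls for BLK.CL4 were 43 without BLK.CL4 replicate 2 (background 14.8%), and fell to 15 and 20 without BLK.CL4 replicates 1 and 3 (backgrounds 12.6% and 15.9%). They fell to 22, 13 and 17 without liver replicates 1, 2 and 3 (backgrounds 11.4%, 10.3% and 11.2%). Of the calls, 60 for liver (background 8.1%) and 9 for BLK.CL4 (background 3.93%) passed in all 6 fits that left out a library, and none turned direction. With the letters of the library codes as a further term of the fit, tried after seeing the data, 111 members (background 13.6%) passed for liver and 39 (background 7.42%) for BLK.CL4.

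Counted by overlap of the libraries alone, 86 members (9.10%, background 12.3%) had all 3 liver values above all 3 BLK.CL4 values in CPM, and 407 (43.1%, background 42.2%) had all 3 below. With TMM scaling these counts were 270 (28.6%, background 16.0%) and 141 (14.9%, background 29.8%). The floor limits these shares in the same way, so they too are a description.

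The order of the shared signatures was partly kept between liver and the cell line. Across the 945 members, the Spearman correlation of the group means was 0.493 and the Pearson correlation of their log2 values 0.551. The same Spearman value was 0.0165 over the 1282 other signatures counted in all libraries and -0.06 over all tested ones. Members are not independent replicates, and low signatures are bounded by the floor in all libraries, so these values describe the set and carry no p. Between single libraries, the Spearman correlation over members was 0.732 to 0.870 within BLK.CL4, 0.662 to 0.707 within liver and 0.323 to 0.497 between the groups. Every pair within a group was therefore closer than every pair across groups.

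The top of the list was partly shared. The 10 most abundant members of the groups had 4 in common, the top 50 had 20, the top 100 had 49 and the top 200 had 112. Of the 100 most abundant in BLK.CL4, 3 ranked in the lower 50% of members in liver. Of the 100 most abundant in liver, 17 ranked in the lower 50% in BLK.CL4. The median shift in rank between the groups was 173 places.

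**Figure D2:**
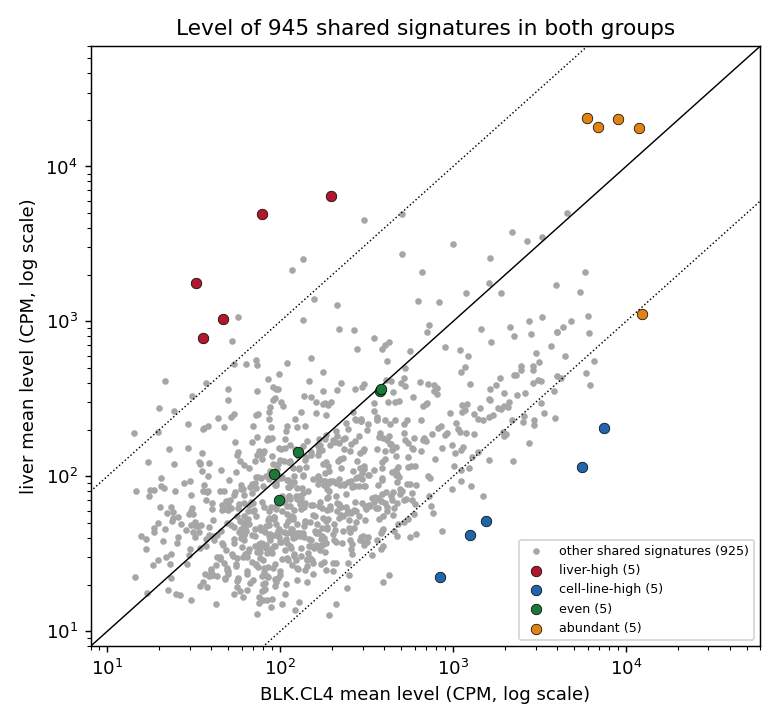
Mean level in BLK.CL4 (x axis) against mean level in liver (y axis) for the 945 shared signatures, both in CPM on log scales, each mean over 3 libraries. The solid line marks equal levels and the dotted lines a 10-fold difference, and the coloured points are the 20 signatures printed in the text. Of the 5 abundant ones, 4 lie at the top right.

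Level and ratio were tied together. The 111 members with a BLK.CL4 mean of at least 1000 CPM had a median log2 ratio of -2.52, and 27 of them were more than 10-fold higher in BLK.CL4. The 37 members with a liver mean of at least 1000 CPM had a median of 1.10, and 8 were more than 10-fold higher in liver. The 135 members under 50 CPM in BLK.CL4 had a median of 0.78. The level that defines each band is also part of the ratio, so these values are given as a description.

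The abundant signatures common to both sources ranked 1 to 4 among the members in liver. The first of them, GATCccactgcacataggac, had 6552, 9324 and 2075 CPM in BLK.CL4 replicates 1, 2 and 3, against 17607, 37224 and 7213 CPM in liver replicates 1, 2 and 3. Replicate 2 was the highest and replicate 3 the lowest of both groups, and the lowest liver library lay below the highest BLK.CL4 library, so the groups overlapped. Its fitted log2 difference was 3.44 toward liver with TMM factors (SE 0.92, edgeR adjusted p = 0.0319) and 1.79 with library totals (adjusted p = 0.0875). Over the alternatives tried, this adjusted p ran from 2.22e-19 with no filter on low counts to 0.110 without BLK.CL4 replicate 1.

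GATCaaactttaccattatt had 11148, 12500 and 3176 CPM in the BLK.CL4 replicates and 18093, 36078 and 6934 CPM in liver. GATCaaacaacccaacagga had 7067, 10368 and 3253 CPM in BLK.CL4, against 17831, 30063 and 6181 CPM in liver. GATCaacaaatctcctaggc had 12114, 18679 and 4813 CPM in BLK.CL4, against 14836, 32868 and 5805 CPM in liver. All 3 repeated the order of replicates seen for the first, with replicate 2 highest and replicate 3 lowest in both groups, and in each the groups overlapped. With TMM factors GATCaaactttaccattatt and GATCaaacaacccaacagga were called higher in liver (edgeR adjusted p = 0.0461 and 0.0360) and GATCaacaaatctcctaggc was not (0.0856). With library totals none of these 3 passed (adjusted p = 0.225, 0.139 and 0.554). Over the alternatives their lowest adjusted p was 1.76e-13, 3.39e-14 and 4.36e-08, each with no filter on low counts, and the highest was 0.225, 0.139 and 0.633.

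That order of replicates was found in 44 of the 945 members (4.66%), these 4 included, and in 41 (3.20%) of the 1282 other tested signatures counted in all 6 libraries. Across all members, the log2 ratio of replicate 2 to replicate 3 in BLK.CL4 had a Pearson correlation of 0.442 with the same ratio in liver. The replicate numbers follow the order of the records and do not pair libraries, but the libraries concerned are those whose codes share letters, as described at the start. What these letters stand for, and their part in this relation, was not tested.

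The most abundant member in BLK.CL4, GATCcatctgcatttgcggc, behaved otherwise. It had 14959, 5521 and 16749 CPM in the BLK.CL4 replicates and 1234, 814 and 1297 CPM in liver. Every BLK.CL4 library lay above every liver library, and replicate 2 was the lowest of both groups. The mean was 11.1 times higher in BLK.CL4, and the fitted log2 difference was -2.0 with TMM factors (SE 0.57, edgeR adjusted p = 0.0380) and -3.48 with library totals (adjusted p = 0.00552). Over the alternatives the adjusted p ran from 0.000124 with no filter to 0.0927 without BLK.CL4 replicate 1.

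Counts were spread more evenly over the members in all 3 BLK.CL4 libraries than in liver replicates 1 and 2. The 10 most abundant members of each library held 17.2%, 21.4% and 16.7% of the shared counts in BLK.CL4 replicates 1, 2 and 3. In liver they held 37.8%, 55.7% and 23.9%. All liver shares lay above all BLK.CL4 shares (mean 39.1% ± 16.0 against 18.4% ± 2.62, SD, n = 3 each), but liver replicate 3 stood near the cell line. The difference of the means was 20.7 percentage points, and 12.4 points without liver replicate 2.

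Other measures of evenness placed liver replicate 3 on the other side of the cell line. Of the shared counts, 50% lay in 54, 58 and 54 signatures of BLK.CL4 and in 25, 7 and 63 signatures of liver. Pielou's evenness, which is 1 when all members are equally abundant, was 0.833, 0.837 and 0.830 in BLK.CL4 and 0.759, 0.645 and 0.844 in liver. The Gini coefficient, which is 0 under equality, was 0.730, 0.706 and 0.739 in BLK.CL4 and 0.765, 0.838 and 0.682 in liver. By these measures the groups overlapped, since liver replicate 3 was the most even of the 6 libraries.

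**Figure D3:**
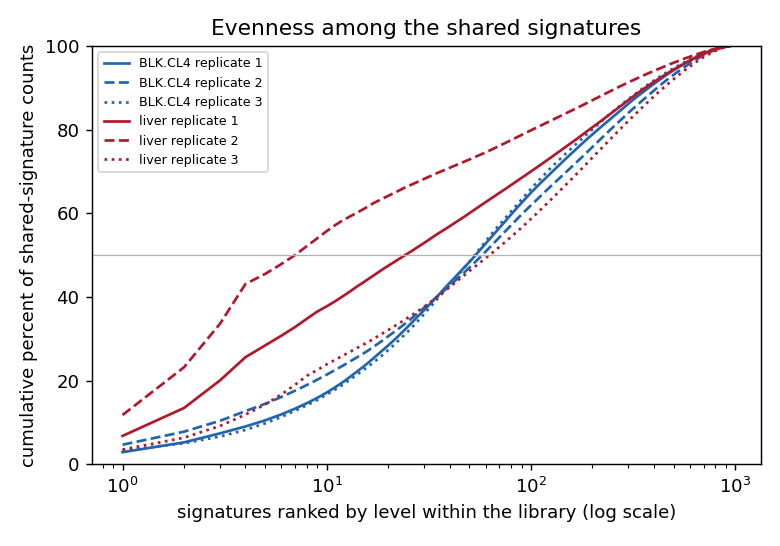
Cumulative percent of the counts of the 945 shared signatures (y axis) against signatures ranked from the most abundant within each library (x axis, log scale), with BLK.CL4 in blue, liver in red and 1 line per library. Liver replicate 2 reaches 50% after 7 signatures and liver replicate 1 after 25, while liver replicate 3 reaches it after 63, beyond the 54 to 58 signatures of BLK.CL4.

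The 4 signatures in the top 10 of both groups carried much of this. They held 7.13%, 12.7% and 2.63% of the shared counts in the BLK.CL4 replicates and 25.6%, 43.1% and 10.3% in liver. Without them, the 10 most abundant of the remaining 941 members held 16.1%, 14.6% and 17.1% in BLK.CL4 and 22.6%, 29.8% and 19.5% in liver, a difference of 8.03 points. All liver shares still lay above all BLK.CL4 shares. Pielou's evenness was then 0.842, 0.867 and 0.829 in BLK.CL4 and 0.839, 0.805 and 0.864 in liver, so the 2 ranges overlapped, as they did with the 4 included. These 4 were set aside after their values had been seen.

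The signatures furthest toward liver are those with the largest ratio, and their levels in the cell line differed widely. GATCgcttactgtgaggaga had 39.7, 139 and 56.2 CPM in BLK.CL4 replicates 1, 2 and 3, against 5541, 3641 and 5519 CPM in liver. The lowest liver library was far above the highest BLK.CL4 library, and replicate 2 was the nearest to the other group in both. The mean ratio was 62.6, which places it 8th among members in liver and 689th in BLK.CL4. The fitted log2 difference was 7.41 with TMM factors (SE 0.80, edgeR adjusted p = 0.000755) and 5.97 with library totals (SE 0.76, adjusted p = 0.00152).

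GATCtctgctgtgggaaagg had 14.3, 71.7 and 12.3 CPM in BLK.CL4, against 2023, 1668 and 1638 CPM in liver, a ratio of 54.2. GATCctgcaggccctgggtg had 251, 44.4 and 293 CPM in BLK.CL4, against 7556, 2826 and 8950 CPM in liver, a ratio of 32.8. The liver libraries of the first agreed closely while BLK.CL4 replicate 2 stood above the other 2 cell line libraries, and in the next replicate 2 was the lowest of both groups. GATCcacgtctcgtcgtcag had 57.1, 18.0 and 64.0 CPM in BLK.CL4, against 1255, 582 and 1256 CPM in liver, a ratio of 22.2. GATCtggttgtactgtcaaa had 18.0, 58.0 and 30.6 CPM in BLK.CL4, against 472, 807 and 1064 CPM in liver, a ratio of 22.0. In none of the 5 did the groups overlap, as their choice required. All passed the whole-table test in each alternative fit that held them, with edgeR or DESeq2 adjusted p at most 0.0206. They were chosen for a large ratio in these same libraries, so passing was close to given, and their p-values are a description only.

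The signatures furthest toward the cell line showed the mirror image, with liver levels close to the floor for some. GATCtcacaggctgagaaat had 6352, 6548 and 3759 CPM in BLK.CL4, against 68.4, 197 and 80.3 CPM in liver. The groups were far apart, with replicate 2 again the highest in liver. The mean was 48.2 times higher in BLK.CL4. The fitted log2 difference was -3.97 with TMM factors (SE 0.75, edgeR adjusted p = 0.00785) and -5.59 with library totals (SE 0.73, adjusted p = 0.00160).

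GATCctcttccacgagacac had 724, 506 and 1276 CPM in BLK.CL4, against 20.3, 23.4 and 23.8 CPM in liver, 37.1 times lower. GATCagcaagcaggagtacg, the 4th most abundant member in BLK.CL4, had 6634, 6984 and 8640 CPM there and 42.9, 163 and 414 CPM in liver, 35.9 times lower. The liver values of the former were nearly equal, whereas those of the latter ranged widely, with replicate 3 the highest. GATCaagtttaaatgactgt had 1603, 755 and 2300 CPM in BLK.CL4, against 16.8, 31.9 and 105 CPM in liver, 30.3 times lower. GATCaaaggaaaggggaggg had 1626, 583 and 1545 CPM in BLK.CL4, against 60.9, 33.4 and 30.7 CPM in liver, 30.03 times lower.

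All 5 passed the whole-table test with TMM factors, with edgeR adjusted p from 0.00659 to 0.0169. They too were chosen for their ratio in these same libraries, so their p-values are a description only. Of these, 3 missed the threshold under some alternative. GATCctcttccacgagacac missed it when T or TH runs were counted alone (adjusted p over the alternatives from 2.44e-08 with the DESeq2 Wald test to 0.0616 with edgeR). GATCagcaagcaggagtacg missed it with TH runs only (from 8.08e-09 to 0.0882, both with edgeR). GATCaagtttaaatgactgt missed it without liver replicate 2 (from 6.33e-05 with the DESeq2 Wald test to 0.0523 with edgeR).

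The most even signatures were of middling abundance. GATCcacgaaggtggtgccc had 327, 424 and 389 CPM in BLK.CL4 replicates 1, 2 and 3, against 472, 309 and 292 CPM in liver replicates 1, 2 and 3. The groups overlapped, the highest library was 1.62 times the lowest, and the SD of log2 CPM over the 6 libraries was 0.275. GATCtccttggagtctcaag had 326, 437 and 380 CPM in BLK.CL4, against 326, 293 and 484 CPM in liver, with the highest library 1.65 times the lowest. GATCacaaatacagattctt had 132, 125 and 126 CPM in BLK.CL4, against 162, 97.3 and 169 CPM in liver, with the highest 1.74 times the lowest.

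The last of these was almost constant within BLK.CL4, and its liver values lay on both sides of the cell line. TH runs gave 99.3% of its counts and T runs gave none in any BLK.CL4 library, so its even level rests on TH runs. GATCtctgcccaaaccaggc had 124, 76.5 and 93.7 CPM in BLK.CL4, against 70.2, 59.9 and 81.1 CPM in liver. Its T runs gave 101, 75 and 101 counts in the BLK.CL4 libraries and none in any liver library, so its even level holds for the sum of the run types and not for T runs. GATCccttttccattctgga had 84.1, 99.4 and 93.2 CPM in BLK.CL4, against 88.7, 70.3 and 150 CPM in liver. Evenness is a property of the CPM scale here: with TMM factors the fitted log2 differences of the 5 ran from 1.01 to 1.61 toward liver, while with library totals they ran from -0.48 to 0.16. These signatures were chosen for their small spread, so no test is given for them.

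**Figure D4:**
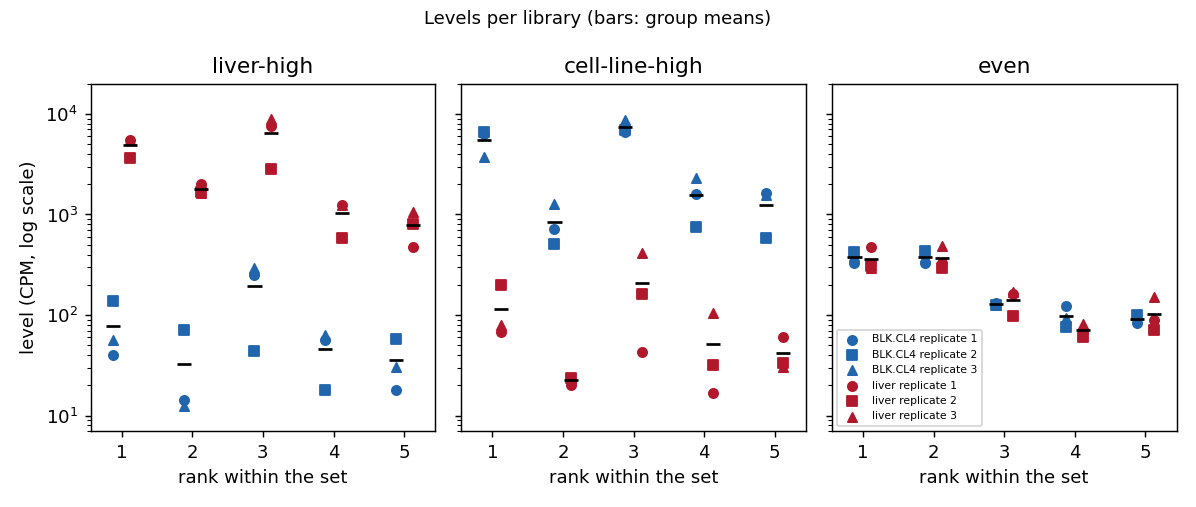
Level in each library (y axis, CPM, log scale) of the 5 liver-high, 5 cell-line-high and 5 even signatures, in the order in which they are printed in the text (x axis). Blue symbols are BLK.CL4 and red symbols liver, the symbol shape gives the replicate and the bars are group means. The groups stand apart in the first 2 panels, as the choice required, and overlap in the even panel.

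Few members were as steady as these. All 6 libraries lay within 2-fold for 8 members and within 3-fold for 84, or 27 and 136 with TMM scaling, and 9 members spanned more than 100-fold. The median ratio of the highest to the lowest library was 7.97. Within a group, the median SD of log2 CPM was 0.64 in BLK.CL4 and 0.80 in liver, and liver had the larger SD for 579 members. The lowest library of a member was a liver library for 700 of the 945, and liver replicate 2 alone for 375.

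The floor cut through a dense range of levels. In their lowest library, 319 members lay under 20 CPM, 165 were at or above 100 CPM and 9 at or above 1000 CPM. The 3 members nearest the floor all had 10.1 CPM in BLK.CL4 replicate 1, from 19 counts. GATCagcttttctgtttatt had 38.5 and 12.8 CPM in the other BLK.CL4 libraries and 125, 46.4 and 122 CPM in liver. GATCggctcatcatctgtgt had 16.6 and 26.1 CPM in the other BLK.CL4 libraries and 67.8, 61.9 and 114 CPM in liver. GATCtgaatgctgccgagtc had 36.1 and 19.2 CPM in the other BLK.CL4 libraries and 14.5, 11.0 and 64.3 CPM in liver.

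Of the signatures just outside, GATCcctgccgaggtgctca reached 9.98 CPM in liver replicate 2 and 10.7 to 154 CPM in the other libraries. GATCacctctagacagcccc and GATCtattcctgcagcttgt both had 9.86 CPM in liver replicate 1. Their other libraries held 18.0 to 63.5 CPM and 25.6 to 72.5 CPM, so a single library kept each of the 3 out of the set.

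Each library was read in 2 runs of a type headed T and 2 of a type headed TH, and the type mattered for the members. Of the 945, 94 (9.95%) had no count in any T run and 72 (7.62%) had none in any TH run, against 18.96% and 14.04% of all tested signatures. Among the 1282 other tested signatures counted in all 6 libraries the shares were 13.8% and 8.27%. The floor was set on the sum of the run types. A signature that a run type misses reaches it less easily, so these contrasts are a description. Both types counted 779 members, and 400 were counted by both types in every library. More than 90% of the counts came from TH runs for 161 members and from T runs for 124. Among the named signatures, GATCtggttgtactgtcaaa, GATCaagtttaaatgactgt, GATCtccttggagtctcaag and GATCtgaatgctgccgagtc had no TH count at all.

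Despite this, the types gave similar differences between liver and the cell line. The log2 ratio in T runs had a Spearman correlation of 0.832 with that in TH runs over the 648 members with a ratio in both, and the sign was the same for 581 (89.7%). The median absolute difference between the types was 0.43. Over the 339 members with at least 10 counts per library in both types the correlation was 0.944, and 92.3% had the same sign. Both types come from the same libraries, so this is a check of the counting and not a replicate. An exception was GATCaacaaatctcctaggc, with a log2 ratio of -1.87 in T runs and 1.42 in TH runs.

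The missing counts were linked to the sequence of a signature. A palindrome of 4 bases at position 3, 7, 11 or 15, counted from the first G, was found in 87 members, 41 of which had no T count. A palindrome at position 4, 8, 12 or 16 was found in 73 members, 46 of which had no TH count. Among all tested signatures, 625 of 870 with a palindrome at the first positions had no T count and 569 of 817 at the second positions had no TH count. A smaller part of the members than of all tested signatures was thus without counts at such positions. Among the 1282 other tested signatures counted in all 6 libraries, 79 of 110 had no T count and 54 of 80 had no TH count. The floor on summed runs favours signatures that both types count, so this is a description.

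Part of the shared set consisted of near-copies. Of the 945 members, 90 differed from another member by a single base. They formed 54 pairs in 40 families, 37 of them with 2 members and 3 with 4 or 6. The differing base was the last, position 20, in 37 of the 54 pairs (68.5%), position 19 in 4, and an earlier position in 13. Counting partners among all tested signatures, 241 members (25.5%) had one that differed only at base 20, against 17.6% of all tested signatures.

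These pairs split by type of run. In 36 of the 37 pairs that differ at base 20, more than 90% of the counts of one form came from TH runs, and in 31 of these the other form had under 60% TH counts. The median share of TH counts was 100% in the TH-rich forms and 23.0% in their partners. The TH-rich form was the less abundant one in 27 pairs. The 13 pairs that differ before position 19 had a median difference in TH share of 12.0 percentage points, against 71.7 points for base 20. More than 90% TH counts were found for 52.1% of the 71 members in base-20 pairs and for 14.2% of the other 874.

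**Figure D5:**
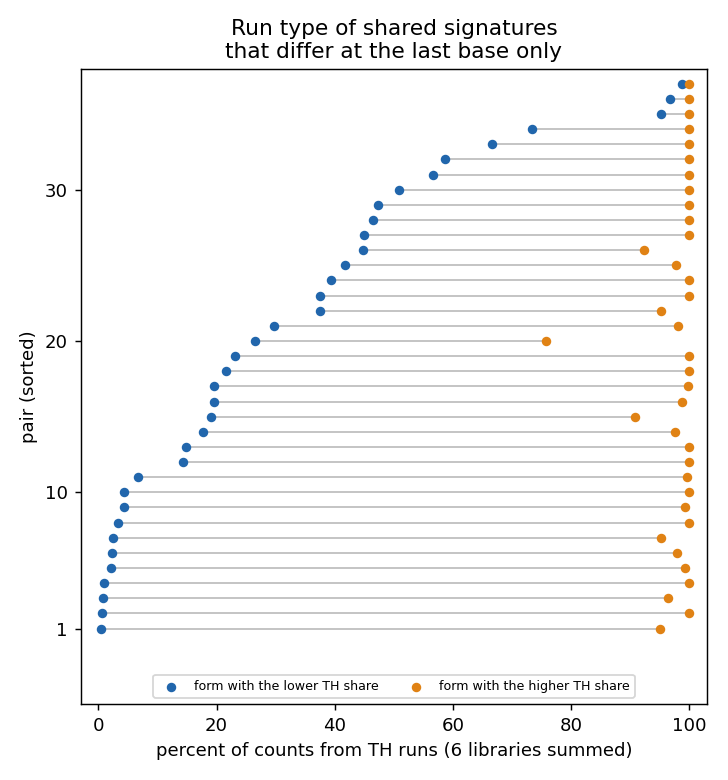
Percent of counts that came from TH runs (x axis, 6 libraries summed) for the forms of each of the 37 pairs of shared signatures that differ at the last base only (y axis, sorted by the lower share). Orange marks the form with the higher TH share and blue its partner, and in 36 of 37 pairs the orange point lies above 90%.

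Pairs A and B are shown as examples of a near-complete split between T and TH runs, with the differing last base in capitals. Abundance alone does not single them out, since some more abundant pairs split less completely. In some other pairs the log2 ratios of the forms also lay further apart, so these examples do not stand for all pairs.
pair A, T-rich form: gatcctgatgcccaacatcG
pair A, TH-rich form: gatcctgatgcccaacatcC
pair B, T-rich form: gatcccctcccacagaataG
pair B, TH-rich form: gatcccctcccacagaataA
The first form of pair A, gatcctgatgcccaacatcG, had 3444, 1654 and 4627 CPM in the BLK.CL4 replicates and 249, 216 and 425 CPM in liver, and 2.10% of its counts came from TH runs. Its partner gatcctgatgcccaacatcC had 1660, 568 and 1627 CPM in BLK.CL4, against 86.4, 98.8 and 215 CPM in liver, and 99.3% of its counts came from TH runs. Both forms were higher in every BLK.CL4 library than in any liver library, and their log2 ratios were -3.45 and -3.27. In pair B the TH shares were 2.31% for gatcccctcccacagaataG and 97.9% for gatcccctcccacagaataA, and the log2 ratios were -2.79 and -2.04.

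The forms of a pair mostly had the same direction between liver and the cell line. Of all 945 members, 686 were higher in BLK.CL4 in CPM, so a shared direction is frequent among any members. The log2 ratios of the 37 base-20 pairs differed by a median of 0.59 and by up to 4.08. They lay within 1 of each other in 25 pairs and had the same direction in 34. The pairs hold 71 members, so some members are in more than 1 pair. Whether the forms of a pair come from separate transcripts was not tested. Merging signatures on their first 17 bases left 949 shared signatures, since some groups reached the floor only when merged.

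The largest near-copy family by level was that of abundant 4, shown here with the variable bases, positions 19 and 20, in capitals.
form 1: gatcaacaaatctcctagGC
form 2: gatcaacaaatctcctagCC
form 3: gatcaacaaatctcctagTC
form 4: gatcaacaaatctcctagGT
Form 1, gatcaacaaatctcctagGC, was the most abundant in every library when the run types were summed, with the values given above for abundant 4. Form 2, gatcaacaaatctcctagCC, had 431, 214 and 277 CPM in BLK.CL4, against 4572, 7462 and 1521 CPM in liver, without overlap between the groups. Form 3, gatcaacaaatctcctagTC, had 944, 116 and 460 CPM in BLK.CL4, against 3004, 4589 and 624 CPM in liver. Form 4, gatcaacaaatctcctagGT, had 262, 243 and 132 CPM in BLK.CL4, against 449, 2698 and 692 CPM in liver. With the run types summed, form 1 held 92.0% of the family's mean level in BLK.CL4 and 67.6% in liver, and form 2 held 2.4% and 17.1%. The split depended on the type of run. In T runs of liver, form 1 had a mean of 3499 CPM, below form 2 with 8696 CPM and form 3 with 5005 CPM, and held 20.3% of the family, against 88.4% in T runs of BLK.CL4. In TH runs form 1 held 86.9% in liver and 95.6% in BLK.CL4, and form 4 had no count in T runs of either source.

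The other families with more than 2 members have 6 forms each, which differ at bases 8, 9 and 20 in family P and at bases 5, 6, 11 and 17 in family Q. The 3 most abundant forms of each are shown, as an example of differences away from the last base, with the variable bases in capitals.
family P, form 1: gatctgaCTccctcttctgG
family P, form 2: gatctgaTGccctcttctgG
family P, form 3: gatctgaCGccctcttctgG
family Q, form 1: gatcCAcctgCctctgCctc
family Q, form 2: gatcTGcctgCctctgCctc
family Q, form 3: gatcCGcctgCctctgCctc
Form 1 of family P, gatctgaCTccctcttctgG, had 2375, 4513 and 1767 CPM in BLK.CL4, against 557, 717 and 185 CPM in liver. Form 2, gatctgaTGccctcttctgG, had 806, 2431 and 267 CPM in BLK.CL4, against 215, 882 and 425 CPM in liver. Form 3, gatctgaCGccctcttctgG, had 838, 1983 and 455 CPM in BLK.CL4, against 170, 353 and 56.5 CPM in liver. These 3 forms were highest in replicate 2 of both groups, and of them the groups overlapped for form 2 only. The other forms of family P overlapped between the groups, and forms 4 and 5 were highest in replicate 1 of BLK.CL4, with 841 and 512 CPM. In family Q, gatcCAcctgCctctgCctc had 772, 1023 and 643 CPM in BLK.CL4, against 244, 627 and 238 CPM in liver, also highest in replicate 2 of both groups. Form 3, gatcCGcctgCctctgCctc, was instead highest in replicate 1 of liver, with 101, 86.8 and 31.5 CPM in the liver libraries.

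Some members occur near the start sites of several genes. The bases of each member were searched on both strands of 32851 promoter windows of RefSeq (build GRCm38.p6), which run from 250 bases before to 50 bases after an annotated start. A match was found for 14 members (1.48%), against 72 (0.881%) of the 8170 other tested signatures, and 8 members (0.847%) matched more than 1 window, against 28 (0.343%). Form 2 of family P, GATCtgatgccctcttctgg, was found in 25 windows of 24 genes, which is 0.0761% of all windows. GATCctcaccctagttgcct was found in 14 windows, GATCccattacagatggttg in 13 and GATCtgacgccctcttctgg in 12. A match in many windows means that the signature does not point to a single gene. Rodent genomes hold many copies of short interspersed repeats, but no repeat annotation was used here and none of these signatures was assigned to one.

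The levels of the members with many matches differed between replicates. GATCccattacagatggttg had 771, 1738 and 36.1 CPM in BLK.CL4, against 34.8, 448 and 155 CPM in liver. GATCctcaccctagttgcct had 61.9, 142 and 56.7 CPM in BLK.CL4, against 38.3, 60.4 and 18.0 CPM in liver. Both were highest in replicate 2 of both groups, with overlap between the groups. Of all 945 members, 89 were highest in replicate 2 of both groups and 248 in replicate 3 of both. Whether this order is tied to the matches was not tested. With TMM factors, none of the 4 signatures found in 10 or more windows passed the whole-table test (edgeR adjusted p from 0.530 to 0.866). With library totals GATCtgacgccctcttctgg was called higher in BLK.CL4 (adjusted p = 0.0487).

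The base composition of the members was close to that of all tested signatures. Over the 16 bases after GATC, members had 51.4% G and C, against 49.5%. A CG was found in 309 members (32.7%), against 27.5% of all tested signatures. The members with CG had a median log2 ratio of -1.14, and those without had -0.96. Sequence typical of the far 3′ end of a transcript was rare in both sets: AATAAA, the polyadenylation signal, was in 1 member (0.106%, against 0.483%), ATTTA in 4 (0.423%, against 0.658%) and a run of 6 or more A in 2 (0.212%, against 0.581%). These motifs were searched on the strand as deposited, within 16 bases, so their absence says nothing about the rest of a transcript.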

How the data were processed

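MPSS counts were deposited by the authors as raw bead counts, 1 value per signature and run, per the file headers; the labels also speak of a conversion to relative abundance, which was not found in the values used. The files held 93.9% to 95.2% of the beads the labels state. The base caller, any signature filter and the genome build are not given in the sources used here. Runs were summed per library, a signature not listed was set to 0, and CPM used the library's summed count. A level of 3 counts equalled 1.23 to 1.74 CPM. Intervals of counting error were not computed, since beads carry amplified molecules.

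The 9115 signatures that reached 10 CPM in 2 or more libraries entered a quasi-likelihood test in R 4.3.3 with edgeR 4.0.16 (glmQLFit, glmQLFTest, TMM factors, group as the only term, two-sided, all 6 libraries, Benjamini-Hochberg adjustment). SE values were taken from the F statistic. The test was checked on simulated counts with 200 changed signatures, balanced between the directions, and otherwise equal group means. That check does not cover the choice of scaling. DESeq2 1.42.0, other scalings, filters, floors, single run types, merged signatures fits without each library and, added after seeing the data, a fit with code letters as a block were the alternatives. Summaries used Python 3.11.15 and pandas 2.3.3. The rule for named signatures is that given beside their sequences, with the 3 members nearest the floor and the 3 nearest outside it. The members, the lists and the tests were chosen with earlier results of these data known. Matching to genes, the gene lists and the cell type markers that were planned need transcript sequences and were not run. Library labels give no replicate numbers, so replicates were numbered in the order of the records.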

Additional observations from a re-analysis of the deposited data

How the results depend on the processing

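The number of shared signatures was 531 with a floor of 25 CPM and 317 with 50 CPM, and it ran from 986 to 1320 when a library was left out. The median log2 ratio turned to 0.44 with TMM factors and 0.33 with DESeq2 size factors, and stayed from -1.21 to -0.95 without any library. The share within 2-fold was 40.1% with the 25 CPM floor, 47.5% with TMM factors and 46.9% with DESeq2 size factors. Members called higher in liver numbered 37 with library totals, 197 with the DESeq2 Wald test, 59 with no filter on low counts, 59 with T runs only and 64 with TH runs only, and 69 to 114 without a library. Members called higher in BLK.CL4 numbered 196 with library totals, 89 with the DESeq2 Wald test and 20 with no filter, and 13 to 43 without a library. T runs tested 809 of the members and TH runs 846, and the DESeq2 test gave no adjusted p for 2. For each of these values the cause was not tested. The fit with no filter tested 69349 signatures, the fit of T runs only 7508 and the fit of TH runs only 7944. For these fits and the DESeq2 Wald test, the share called over all tested signatures is not given here. Their counts are therefore not a result about the members. The rank correlation stayed between 0.452 and 0.505 in all settings. Of 201 values of named signatures under alternatives, 23 moved by more than the spread between libraries and 178 did not. With TMM factors 19 moved and 4 did not, with T runs only 2 and 19, and with TH runs only 2 and 17. In each setting that left out a library, all 23 values stayed within the spread. Leaving out 1 of 3 libraries seldom shifts a mean beyond that spread, so those values could hardly have moved. Leaving out the 4 signatures abundant in both groups was chosen after seeing the data. Pairing by replicate number was not possible because the labels give no replicate numbers shared by the groups. The letters of the library codes (N, P or neither) do match 1 library of each group. Blocking on these letters, also chosen after seeing the data, gave 111 calls for liver (background 13.6%) and 39 for BLK.CL4 (background 7.42%). The main fit leaves this matching out. Deviations from the group means correlated over members at 0.352 for the libraries with N, 0.369 with P and -0.0149 with neither. The gene-level alternatives were not run, since no transcript sequences were used. Depth limits members near the floor, where a library holds about 20 counts.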
